A study of Drosophila melanogaster with 3 samples.

Results

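Blood cells of Drosophila, the hemocytes, were followed through 9 genes: srp, ush, Pvr, Hml, He, crq, lectin-28C, proPO-A1 and CG8193. Each was taken by its name in the gene column of the deposited table, and each had a row to itself. They are 9 of 13358 named genes, and all 9 were among the 9693 genes that reached 1 RPKM in some library, the genes compared here. RPKM divides a read number by transcript length and library size, so levels of different genes can be set side by side.

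RNA came from brains dissected from larvae of the third instar, with 1 library per genotype. The library labelled control came from dBRWD3PX2/+ animals, which have the PX2 allele of dBRWD3 on 1 chromosome. The library labelled single mutant came from dBRWD3PX2/PX2 animals, and the library labelled double mutant from dBRWD3PX2/PX2, yemGS21861/GS21861 animals. All 3 groups therefore carry PX2, and there is no library without it. dBRWD3 encodes a protein with WD repeats and bromodomains, and yem encodes yemanuclein, a partner of the histone chaperone HIRA. With no replicates, the spread between samples is unknown and no test was run. Every comparison below is between these 3 libraries, and "higher" and "lower" refer to the labelled libraries.

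Larval hemocytes are mostly plasmatocytes, which engulf dying cells and microbes and secrete matrix proteins. Crystal cells store prophenoloxidases, the enzymes that start melanin formation at wounds, and lamellocytes, rare in healthy larvae, wrap large foreign bodies. They circulate or sit on tissues rather than being part of the brain, which is bathed by the hemolymph. In such bulk RNA, fewer cells of a type and less RNA per cell cannot be told apart.

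All 9 genes were above control in the double mutant library, beside 58.0% of all compared genes. In the single mutant library the 9 genes went different ways. He, crq and lectin-28C were 2-fold or more above control in the single mutant. Hml stayed at its control level there, and the prophenoloxidase genes proPO-A1 and CG8193 were below it. Hml, srp, proPO-A1 and CG8193 were 2-fold or more above the single mutant in the double mutant, and He and lectin-28C were at nearly the same level in both mutants. A 2-fold difference here means a log2 ratio of at least 1 after 1 RPKM was added to each value, which makes the ratios of low genes smaller.

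**Figure D1:**
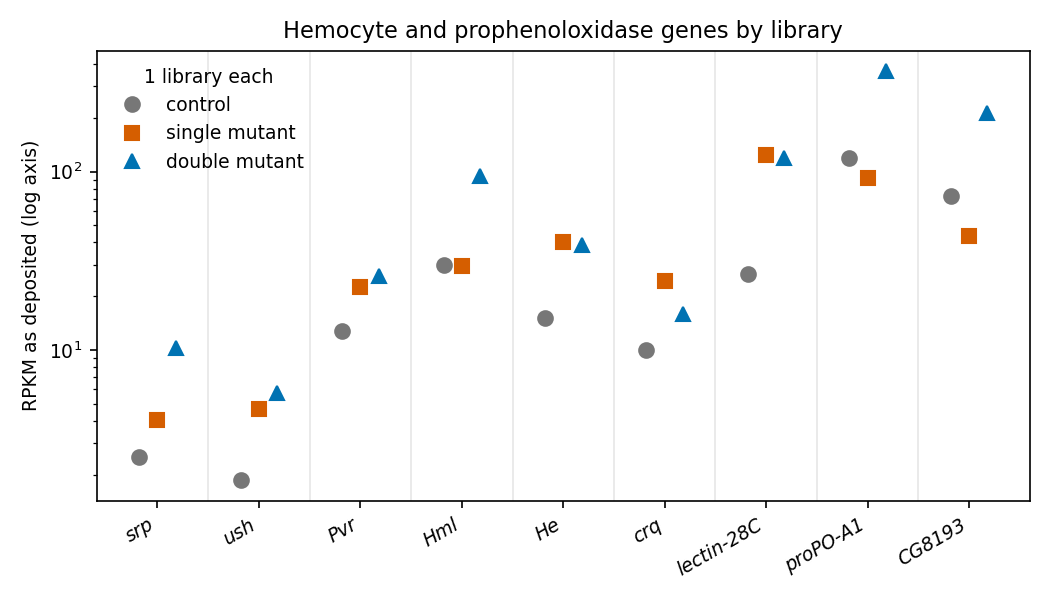
RPKM of the 9 genes (log axis) in the control (circles), single mutant (squares) and double mutant (triangles) libraries, 1 library each. The double mutant point is the highest for srp, ush, Pvr, Hml, proPO-A1 and CG8193, and the single mutant point for He, crq and lectin-28C.

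The transcription factor genes were the lowest of the 9. srp (3R, 11811922 to 11829807, positions in dm3 as deposited) encodes the GATA factor Serpent, which is needed to form hemocytes and also acts in the fat body. It had 2.49 (control), 4.02 (single mutant) and 10.3 RPKM (double mutant). The double mutant library stood apart, 4.12-fold above control and 2.55-fold above the single mutant. ush (2L, 490799 to 540539) encodes U-shaped, a partner of GATA factors that limits crystal cell formation. It had 1.86, 4.64 and 5.70 RPKM, so that both mutant libraries were above control. Its log2 ratio was 0.98 for the single mutant to control and 1.23 for the double mutant to control. The former lay just under the 2-fold line although the RPKM fold was 2.49.

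Pvr (2L, 8220979 to 8239875) encodes the receptor tyrosine kinase of the PDGF and VEGF family, which supports hemocyte survival and migration and is also used in other tissues. It had 12.8 (control), 22.4 (single mutant) and 26.1 RPKM (double mutant). Both mutant libraries were above control, with log2 ratios of 0.77 and 0.97, short of 2-fold with 1 RPKM added.

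Hml (3L, 13838979 to 13859985) encodes Hemolectin, a large clotting protein secreted by plasmatocytes and often used to mark them. It had 29.9 (control), 29.4 (single mutant) and 94.1 RPKM (double mutant). Control and single mutant were alike and the double mutant stood 3.15-fold above control. He (2L, 13970528 to 13972947) encodes Hemese, a glycosylated surface protein of hemocytes. It had 15.1 (control), 40.4 (single mutant) and 38.6 RPKM (double mutant). Here control stood apart, with the mutants 2.68-fold and 2.56-fold above it. The contrast between these hemocyte markers is in the single mutant, where He was high and Hml was not.

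crq (2L, 431252 to 453023) encodes Croquemort, a receptor of the CD36 family with which plasmatocytes take up dying cells. It had 9.97 (control), 24.5 (single mutant) and 16.0 RPKM (double mutant). It was the one gene of the 9 whose single mutant value exceeded the double mutant value by more than 1.5-fold (1.53-fold). lectin-28C (2L, 7857089 to 7857931) encodes a C-type lectin, a protein class that binds sugars. It had 26.7 (control), 124 (single mutant) and 119 RPKM (double mutant). This was the largest ratio to control among the 9 genes in either mutant library, 4.66-fold and 4.45-fold.

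The prophenoloxidase genes had their lowest values in the single mutant and their highest in the double mutant. proPO-A1 (2R, 13761451 to 13813097), now called PPO1, had 119 (control), 92.0 (single mutant) and 365 RPKM (double mutant). CG8193 (2R, 4929764 to 4932213), now called PPO2, had 72.7, 43.6 and 214 RPKM. The single mutant was 1.30-fold and 1.66-fold below control, within 2-fold. The double mutant was 3.97-fold and 4.89-fold above the single mutant, and 3.06-fold and 2.94-fold above control. Summed fat body markers had the same order of libraries, with 598, 224 and 1223 RPKM, and their part in the prophenoloxidase values was not tested.

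The order of the levels changed between the libraries. In control it ran proPO-A1, CG8193, Hml, lectin-28C, He, Pvr, crq, srp and ush from high to low. In the single mutant lectin-28C came first, He was above Hml, crq above Pvr and ush above srp. In the double mutant the order was that of control except that lectin-28C came before Hml. proPO-A1 lay at percentile 91.8 (control), 88.7 (single mutant) and 95.9 (double mutant) of the compared genes. lectin-28C moved from percentile 68.9 in control to 91.4 in each mutant library, and srp from 18.0 in control to 41.3 in the double mutant. No spread is known for any of these levels, so close neighbours in the order, such as Pvr and crq, cannot be ranked firmly.

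Between the single mutant and control, 3 of the 9 genes were 2-fold or more above control, beside 2.70% of all compared genes, and 0 were as far below it, beside 3.60%. Their median log2 ratio was 0.77 and that of all genes 0.04. The ratios ranged from -0.72 for CG8193 to 2.18 for lectin-28C, and 6 of 9 were above 0, beside 54.1% of all genes. Between the double and the single mutant, 4 of 9 were 2-fold or more above the single mutant, beside 4.27% of all genes, and 0 were as far below it, beside 1.48%. The median was 0.25 against 0.04 for all genes, with a range from -0.58 for crq to 2.27 for CG8193. Between the double mutant and control, 7 of 9 were 2-fold or more above control, beside 3.06% of all genes, and 0 were as far below it, beside 1.62%. The median was 1.54 against 0.07 for all genes, and the range ran from 0.63 for crq to 2.11 for lectin-28C. These comparisons share libraries, so their counts are not separate pieces of evidence.

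**Figure D2:**
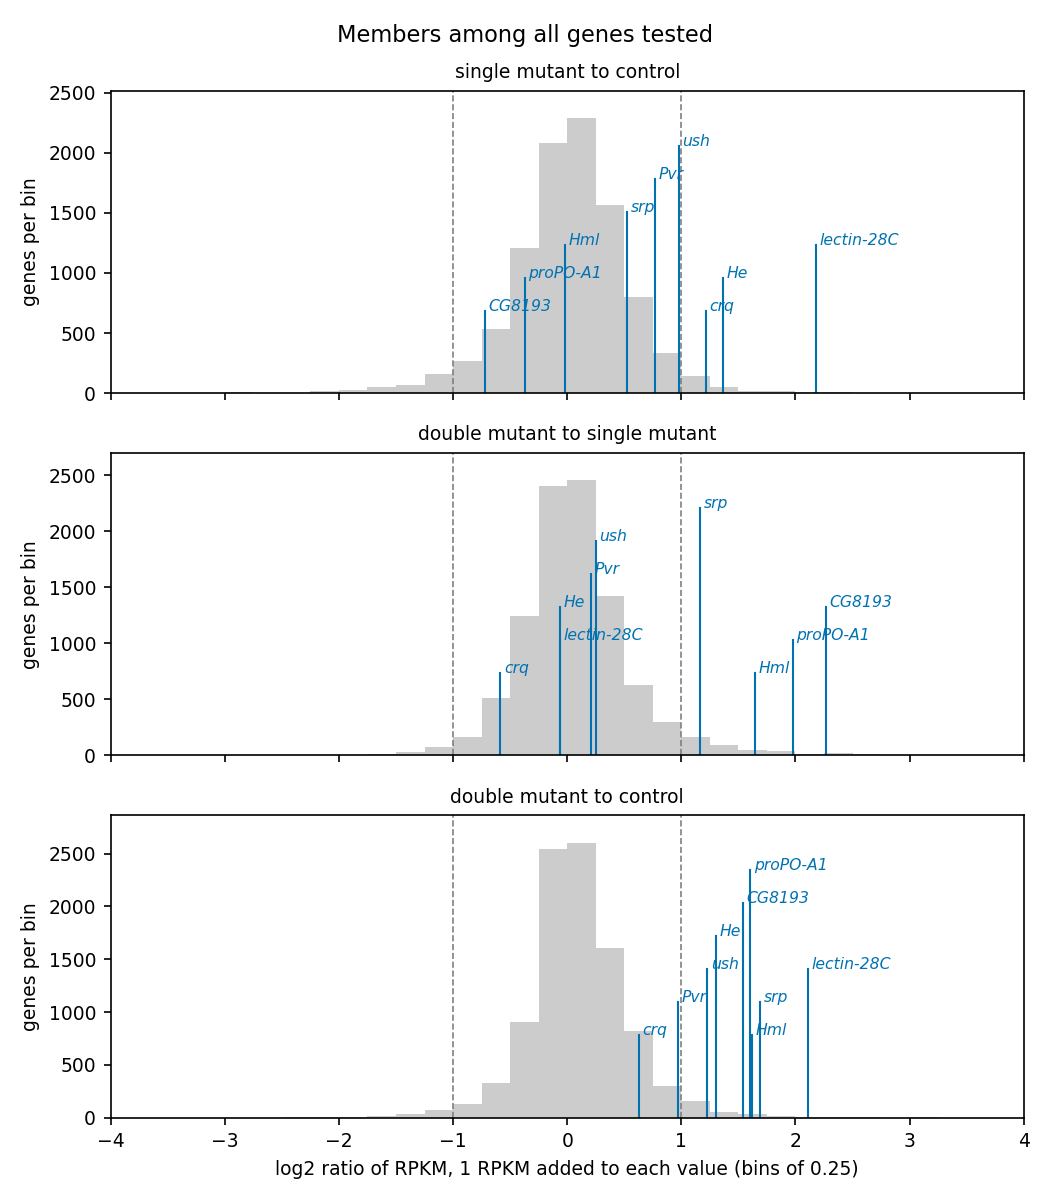
Number of the 9693 compared genes (bars, bins of 0.25) by log2 ratio with 1 RPKM added, for the 3 pairs of libraries, with a line at the ratio of each of the 9 genes (line heights only separate the names) and dashed lines at 2-fold. In the lowest panel all 9 lines lie right of 0, between 0.63 and 2.11, while in the upper panels they spread on both sides of 0.

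Ratios of genes within a library do not change with the scaling of that library. proPO-A1 kept nearly the same level relative to Hml, at 3.99 (control), 3.13 (single mutant) and 3.88 times (double mutant) the Hml RPKM. CG8193 to proPO-A1 was 0.608, 0.474 and 0.585. For the other 6 of the 9 genes, srp, ush, Pvr, He, crq and lectin-28C, the single mutant library had the highest ratio to Hml. Hml itself had 29.9 (control), 29.4 (single mutant) and 94.1 RPKM (double mutant). Any gene above control in the single mutant, as 54.1% of all compared genes were, therefore has its highest ratio there. The exception is a gene that rose at least as far as Hml from single to double mutant. The share of all compared genes with this order was not computed. He to Hml was 0.504 (control), 1.37 (single mutant) and 0.410 (double mutant). crq to Hml was 0.333, 0.831 and 0.170, and lectin-28C to Hml was 0.892, 4.22 and 1.26. The prophenoloxidase genes, by contrast, had their lowest ratio to Hml in the single mutant. The plasmatocyte gene nimC1 had its highest ratio to Hml in control, with 0.265, 0.238 and 0.044. Relative to Hml, control and double mutant differed by at most 1.54-fold (Pvr) for srp, ush, Pvr, He, lectin-28C, proPO-A1 and CG8193, and by 1.96-fold for crq.

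**Figure D3:**
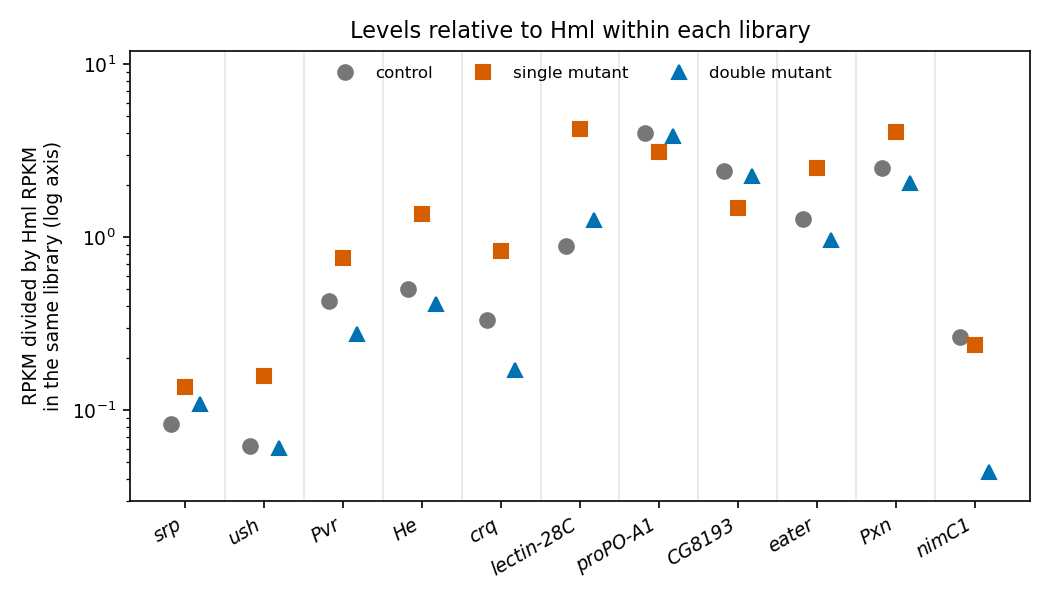
RPKM of each gene divided by that of Hml in the same library (log axis) for the other 8 genes and for the plasmatocyte genes eater, Pxn and nimC1, with 1 point per library. The single mutant squares are the highest for srp, ush, Pvr, He, crq, lectin-28C, eater and Pxn and the lowest for proPO-A1 and CG8193. Hml itself was alike in control and single mutant and higher in the double mutant, which lowers every double mutant ratio. For nimC1 the control circle is the highest and the double mutant triangle the lowest.

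By the 2 log2 ratios to control, the 9 genes fell nearest to each other as ush with Pvr (distance 0.33), Hml with proPO-A1 (0.35) and proPO-A1 with CG8193 (0.36). lectin-28C and CG8193 were the farthest apart (2.96). The same distance was used to name the 3 nearest of 7009 other genes with at least 5 RPKM in a library, and it describes 3 libraries only. Nearest to ush were eater (distance 0.038), a phagocytic receptor gene, Glt (0.049), which encodes glutactin of the basement membrane, and CG42259 (0.053). Cg25C, a collagen IV gene now called Col4a1, was the third nearest to srp (0.16), after CG31775 (0.046) and sbb (0.089). CG42779 (0.18), nimB3 (0.19), a gene of the Nimrod family, and CG42369 (0.28) were nearest to Hml.

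CG32212 lay at 0.013 from proPO-A1, with 68.1 (control), 52.1 (single mutant) and 211 RPKM (double mutant). nimB3 (0.16) and CG42779 (0.27) came next. CG32212 was also nearest to CG8193 (0.35), before the eye colour gene w (0.38) and CG8087 (0.44). A copy of w often marks inserted elements, and w had 6.74, 2.65 and 23.6 RPKM. Nearest to He were mthl2 (0.10), the aquaporin gene Drip (0.14) and CG10131 (0.15), and nearest to crq were the syntaxin gene Syx13 (0.026), bic (0.035) and CG9691 (0.041). Within 0.25, lectin-28C and CG8193 had 0 genes, Hml and proPO-A1 2 each, srp 9, He 12, ush 33 and crq 48. CG15347 (0.34), mir-125 (0.43), a short RNA whose RPKM is uncertain, and CG8501 (0.50) were nearest to lectin-28C.

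Other plasmatocyte and phagocytic receptor genes were also mostly above control in the mutant libraries. There were 14 such rows outside the 9, among them the joined row Oseg4,drpr. Of these 14, 2 (single mutant) and 8 (double mutant) were 2-fold or more above control, beside 2.70% and 3.06% of all compared genes. In the double mutant 1 was 2-fold or more above the single mutant, beside 4.27% of all compared genes. In any of the 3 comparisons 0 were 2-fold or more lower, beside 1.48% to 3.60%. Their median log2 ratio was 0.69 for single mutant against control, 0.22 for the mutants against each other (double to single) and 1.08 for double mutant against control. The medians of all compared genes were 0.04, 0.04 and 0.07. Pxn, which encodes the matrix enzyme peroxidasin, had 75.0, 120 and 193 RPKM in control, single and double mutant. eater had 38.0, 74.0 and 91.1 RPKM. Among the secreted Nimrod genes, nimB5 had 6.66, 15.0 and 39.0 RPKM, nimB4 had 43.8, 81.7 and 109, and nimB2 had 11.4, 15.0 and 28.7. Glt had 12.5, 26.6 and 30.7 RPKM. The phagocytic receptor gene nimC1, a standard plasmatocyte marker, went the other way, with 7.94 (control), 7.02 (single mutant) and 4.15 RPKM (double mutant).

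Most genes of melanization beyond proPO-A1 and CG8193 lay within 2-fold in each pair of libraries, as did most of all compared genes. In each pair and direction, at most 4.27% of all compared genes were 2-fold or more apart. Of 16 compared rows, 2 (single mutant) and 1 (double mutant) were 2-fold or more above control, beside 2.70% and 3.06% of all compared genes. In the double mutant 1 was 2-fold or more below the single mutant, beside 1.48%. The medians, in the same order of comparisons, were 0.20, -0.16 and 0.05, beside 0.04, 0.04 and 0.07 for all compared genes. The list median of 0.05 turned to -0.03 with libraries scaled to the same upper quartile. yellow-f, for an enzyme of melanin synthesis, had 19.2, 40.1 and 41.7 RPKM, and spirit, for a serine protease of the Toll cascade, had 21.02, 57.3 and 24.3. Spn27A, for a serpin that holds melanization back, had 153, 247 and 188 RPKM. The row CG42640,l(2)k09913, which holds the remaining prophenoloxidase gene PPO3 together with a neighbour, had 155, 200 and 142. lz, for the RUNX factor needed to make crystal cells, had 3.99, 5.45 and 6.66 RPKM. Its level per proPO-A1 was 0.033, 0.059 and 0.018, highest in the single mutant.

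The clotting genes outside Hml were, like the prophenoloxidase genes, lowest in the single mutant, 4 of 4, beside 35.0% of all compared genes. Of these clotting genes, Lsp1gamma and Rfabg are also among the fat body markers. Unlike the prophenoloxidase genes, Rfabg and Tg were highest in control, Tg with 6.44 (control), 4.55 (single mutant) and 5.82 RPKM (double mutant). fon, for the clot protein fondue, had 7.19 (control), 1.72 (single mutant) and 15.5 RPKM (double mutant). Lsp1gamma, for a storage protein made by the fat body and related in sequence to prophenoloxidases, had 34.7, 15.8 and 123 RPKM. Rfabg, for the lipophorin precursor, had 17.4, 11.2 and 13.5 RPKM. Of 4 such genes 2 were 2-fold or more below control in the single mutant, beside 3.60% of all compared genes. In the double mutant 2 were 2-fold or more above control and 2 above the single mutant, beside 3.06% and 4.27%.

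Of the 7 lamellocyte genes, 4 (CG6579, alphaPS4, cher and msn) had control as the lowest and the double mutant as the highest library. Over all compared genes, control was lowest in 40.2% and the double mutant highest in 36.8%, and the share with both was not computed. CG6579, now called atilla and used as a lamellocyte marker, had 1.45 (control), 4.96 (single mutant) and 14.7 RPKM (double mutant). The integrin gene alphaPS4 had 0.941, 3.44 and 6.69 RPKM. cher, for a filamin, had 48.4, 60.3 and 97.8 RPKM and the kinase gene msn 83.6, 99.9 and 133, and both are used in many other cells. The other 3 had other orders. The integrin gene mys had 14.9, 28.9 and 24.8 RPKM and the matrix protease gene Mmp1 10.1, 19.7 and 13.8, both highest in the single mutant. The integrin gene alphaPS5 had 0.641, 0.333 and 1.497, lowest in the single mutant. Of the 7 genes 2 (single mutant) and 3 (double mutant) were 2-fold or more above control, beside 2.70% and 3.06% of all compared genes. In the double mutant 1 was as far above the single mutant, beside 4.27%. In any comparison 0 were 2-fold or more lower, beside 1.48% to 3.60%.

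Of 19 other genes for blood cell transcription factors and signals, 18 lay within 2-fold between single mutant and control. The counts were 19 between double and single mutant and 17 between double mutant and control. Most of all compared genes also lay within 2-fold, with at most 4.27% farther apart for each pair and direction. pnr, for a GATA factor that binds U-shaped, had 3.41, 4.76 and 8.93 RPKM, and zfh1, for a zinc finger homeodomain factor, had 1.47, 2.14 and 4.37. Both were 2-fold or more above control in the double mutant, 2 of 19 beside 3.06% of all compared genes. In the single mutant 1 of 19 was as far above control, beside 2.70%. Of the ligands of Pvr, Pvf2 had 3.24, 8.55 and 5.28 RPKM and Pvf1 0.770, 1.93 and 1.53, both highest in the single mutant as crq was. Pvf3 had 6.18, 4.33 and 6.67 RPKM, lowest there. TepIV, for a complement-like protein, had 155, 221 and 186 RPKM, and the Notch receptor gene N had 83.95, 88.1 and 115. Of the GATA factor genes other than srp and pnr, GATAd had 4.31, 2.14 and 5.70 RPKM and grn 2.90, 5.87 and 6.65. GATAe, known from the gut, reached at most 0.070 RPKM.

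Among C-type lectin rows other than lectin-28C, 7 of 16 reached 1 RPKM. lectin-24Db was above control in both mutants, as lectin-28C was, but highest in the double mutant, with 29.6 (control), 60.1 (single mutant) and 63.3 RPKM (double mutant). The joined row Lectin-galC1,lectin-37Da,lectin-37Db had 6.35, 12.1 and 12.2 RPKM and lectin-24A had 0.444, 2.30 and 1.38. lectin-33A had 10.7, 11.1 and 4.89 RPKM, lowest in the double mutant. Of the 8 compared CD36 family genes other than crq, 0 were 2-fold or more apart between single mutant and control or between double and single mutant. Few of all compared genes were: 2.70% higher and 3.60% lower in the former pair, and 4.27% and 1.48% in the latter. CG7227 (2.36, 5.05 and 5.84 RPKM) and CG3829 (2.77, 3.37 and 6.78) were 2-fold or more above control in the double mutant. That is 2 of 8, beside 3.06% of all compared genes. pes, a phagocytic receptor gene of this family, had 9.68, 18.1 and 13.0 RPKM, with the same order of libraries as crq, and santa-maria had 15.2, 12.9 and 15.8.

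**Figure D4:**
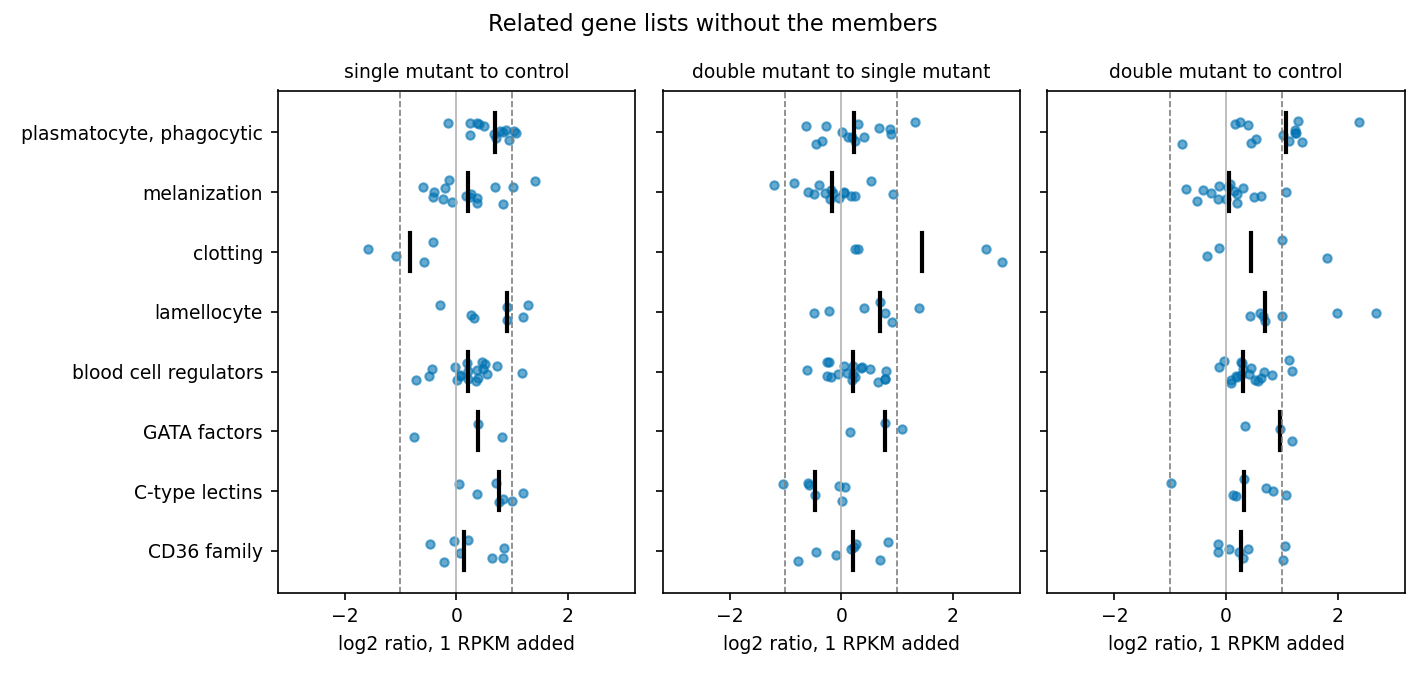
log2 ratio with 1 RPKM added for each compared gene of the related lists without the 9 genes (points, spread vertically for visibility), with the list median (bar) and dashed lines at 2-fold. The clotting median, which includes the fat body markers Lsp1gamma and Rfabg, is -0.84 in the left panel and 1.45 in the middle one. In the right panel 8 of 14 plasmatocyte and phagocytic receptor genes lie at or right of the 2-fold line, beside 3.06% of all compared genes.

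Markers of tissues next to the brain differed between the libraries in ways that varied by tissue. Of the 7 fat body markers summed above, 5 were 2-fold or more below control in the single mutant and 3 as far above it in the double mutant. There, 6 were 2-fold or more above the single mutant, and none was at 0. The matching shares of all compared genes were 3.60%, 3.06% and 4.27%. The 5 basement membrane genes, made by hemocytes and fat body, summed to 307, 431 and 675 RPKM, the order seen for srp, ush and Pvr. The 4 salivary gland markers summed to 159, 635 and 87.5 RPKM, highest in the single mutant, although Sgs3 was highest in control (6.89, 5.40 and 2.65). The 4 gut markers summed to 78.3, 1.23 and 32.1, highest in control, with LysS listed at 0 in the single mutant. The 4 ring gland markers summed to 508, 513 and 428 RPKM, with 0 of them 2-fold apart in any pair of libraries, and the 5 lymph gland and cardiac markers to 9.88, 14.3 and 15.1. The part of attached fat body or other tissue in the values of the 9 genes was not tested.

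Brain markers were detected in every library. The 5 neuron markers summed to 49.7, 50.7 and 80.3 RPKM, the 5 neuroblast markers to 78.4, 92.6 and 87.5 and the 6 glia markers to 102, 92.4 and 107. Single genes within a sum differed. In the single mutant brp, Syt1, para and the row Cha,VAChT were below control, while elav was above it (21.2 and 32.1 RPKM in control and single mutant). In the double mutant dpn, ase and wor were below control, while pros was above it (8.08 and 22.1 RPKM in control and double mutant).

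**Figure D5:**
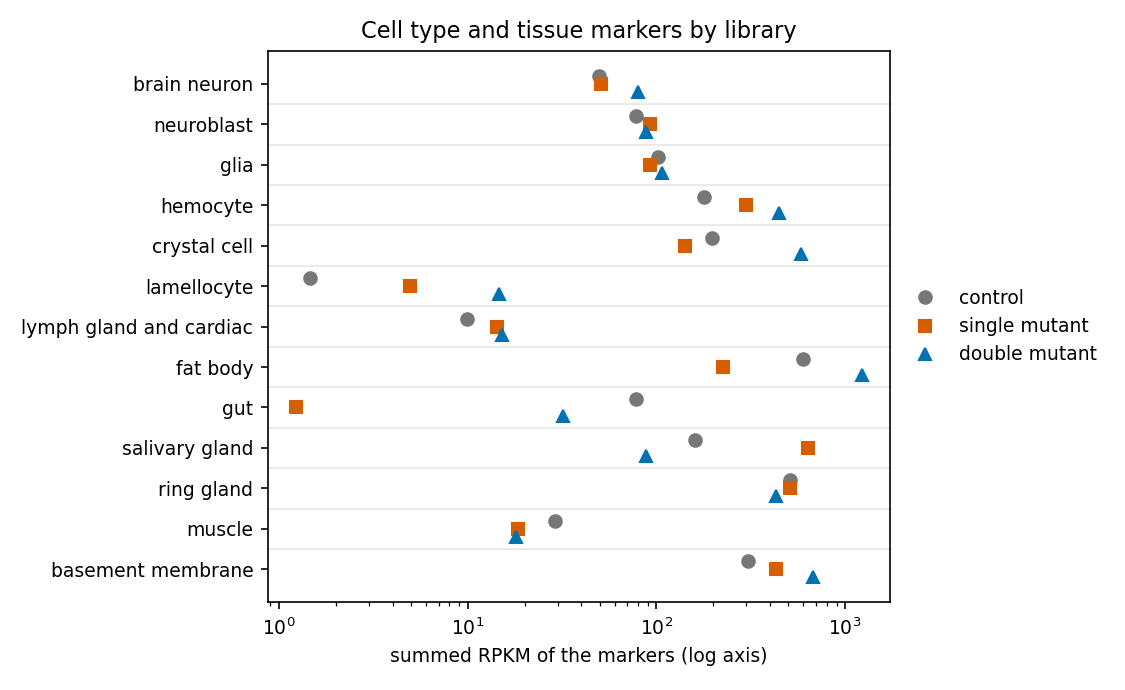
Summed RPKM of each marker list (log axis) in the 3 libraries; the hemocyte and crystal cell lists include Hml, He, srp, crq, proPO-A1 and CG8193. Fat body markers sit at 598, 224 and 1223 RPKM, in the order control, single mutant and double mutant. Crystal cell markers sit at 196, 141 and 586, mostly from proPO-A1 and CG8193, and the remaining marker lz had 3.99, 5.45 and 6.66.

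Some features of the table limit single values. The position of a row is that of a whole assembled locus, so Hml shares its position with CG8745, He with nimB5, crq with ex, and proPO-A1 with elk and 4 further genes, although each has its own value. In the later BDGP6 annotation, 5 of the 9 genes share exonic bases with another gene. On the opposite strand, 31.8% of the exonic bases of lectin-28C overlap TwdlE, 15.7% of those of crq overlap ex and 11.6% of those of He overlap nimB5. On the same strand, 16.1% of those of srp overlap lncRNA:CR44133 and 7.81% of those of ush overlap lncRNA:CR46258, so reads there could belong to either gene. Sources used here do not say whether the counting used strand. The ex row had 5.74, 8.31 and 9.58 RPKM. The row of lectin-28C ends just before that of TwdlE (2L, 7857956 to 7860838), which had 1.39, 5.76 and 6.53 RPKM and was thus also above control in both mutants. In BDGP6 the longest lectin-28C transcript (3.04 kb) runs across TwdlE. The control values of 6 of the 9 genes have more than 6 digits, beside 51.1% of all control values above 0. No value of a mutant column does among these genes, which may mean that control values are averages. The read depth is not given. If the most frequent smallest product of RPKM and transcript length is 1 read, the 9 genes rest on about 290 reads (He, control) to about 31620 reads (Hml, double mutant), an approximation that would not hold for an averaged control column.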

How the data were processed

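The authors deposited 1 table of RPKM values with a row per assembled locus and a column per genotype. Per the submitters' processing notes, the tools were TopHat2 2.0.9 and Cufflinks 2.0.2, besides FastQC and Trimmomatic, and the build was dm3; their settings are not stated in these sources. Of 15229 rows, 1769 (11.6%) without a gene name were left out, as was 1 row with a missing value. Where a name was repeated, its row of highest mean RPKM was used, leaving 13358 genes. Ratios were log2((a + 1)/(b + 1)) for genes that reached 1 RPKM in some library, computed with Python 3.11.15, pandas 2.3.3 and NumPy 2.4.6 and tested on simulated data. Current symbols and transcript lengths came from Ensembl BDGP6 and RefSeq name tables, whose coordinates were not printed or mixed with dm3.

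The 9 genes and the lists were chosen with earlier results of these data known. From each list were named the genes at least 2-fold apart in 1 comparison with at least 2 RPKM (up to 6, by ratio) and the 2 with the highest level. nimC1, the row Oseg4,drpr, lz, Tg, Pvf1, Pvf3, mys, Mmp1, alphaPS5, GATAe and the marker genes were named in addition after their values were seen. No sequences were printed.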

Additional observations from a re-analysis of the deposited data

How the results depend on the processing

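Pseudocounts of 0.5 and 5 RPKM, no filter, a filter at 5 RPKM, rescaling to a median ratio of 0 or to the same upper quartile, a correction for transcript length (each ratio less the median of the 500 genes nearest in length), summed rows of a repeated name and, chosen after seeing the data, rescaling to equal sums without genes of 1000 RPKM or more were tried. The count of genes 2-fold or more higher ran from 2 to 4 of 9 for single mutant to control, 3 to 4 for double to single mutant and 6 to 8 for double mutant to control, and 0 were 2-fold or more lower in each. The medians ran from 0.49 to 0.79, 0.02 to 0.28 and 1.12 to 1.55. The calls that changed were ush (1.12 at 0.5 RPKM added) and crq (0.98 at 5 RPKM added) for single mutant to control, srp (0.76 at 5 RPKM added) for double to single mutant, and ush (0.64 at 5 RPKM added, 0.96 with the length correction) and Pvr (1.0006 at 0.5 RPKM added) for double mutant to control. With the length correction the small double to single mutant ratios of Pvr and He changed sign (-0.01 and 0.02), as did the C-type lectin median (0.01) with the filter at 5 RPKM. The cause was not tested. No paired analysis was possible because each genotype has 1 library. RPKM of low genes such as srp and ush rests on the fewest reads per kilobase, and without replicates neither counting error nor spread between animals could be given.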

Other observations

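Rows with no gene name lay within the assembled locus of ush and were left out of the comparisons above. There were 9 of them, and 9 of 9 had a higher RPKM in the double mutant than in control, beside 58.0% of all compared named genes. In the single mutant 7 of 9 had a higher RPKM than in control, beside 54.1%. In the double mutant 8 of 9 were higher than in the single mutant, beside 53.8%. The share over all rows with no gene name was not computed. Their RPKM ran from 0 to 2.94 (median 0.807) in control, from 0 to 4.82 in the single mutant and from 2.42 to 7.54 in the double mutant. Control and single mutant each listed 2 of the 9 at 0, and the double mutant listed 0 of them at 0. The median of these rows was 1.42 in the single and 4.17 in the double mutant, while the ush row itself had 4.64 and 5.70 RPKM. The rows were not alike: XLOC_002508 was lower in the double mutant, with 4.82 and 2.42, and XLOC_002513 nearly level, with 3.88 and 4.17. The table does not say what these rows hold.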
